A study of Mus musculus with 2 samples.

Results

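The genes described here encode the machinery that docks, primes and fuses vesicles: 73 protein-coding genes of the 19595 genes in the deposited table. They are the rows whose symbol is Syt, Stx, Stxbp, Vamp, Snap, Cplx or Rims followed by a number, Sv2a to Sv2c, Syn1 to Syn3, Syp, Unc13a to Unc13c, Bsn, Pclo, Rab3a to Rab3d, Slc17a6 and Slc17a7. By their textbook use, 42 were classed as neuronal isoforms, 25 as isoforms of general membrane trafficking and 6 as mixed. Both libraries come from total RNA of neural stem cells taken from the brain of embryonic day 13 embryos of the ICR strain. The knockdown library is labelled sh1 with the genotype KO, and the control library psicor with the genotype WT. The gene knocked down is Ccdc25, whose part in the formation of neurons is the subject named in the title. Triplicates are mentioned in the design, but each group has 1 count column, so differences have no replicate check and were not tested. Whether a column holds a pool or a sum, what vector and promoter drove the knockdown and how long it lasted are not given in the sources used here.

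Transport vesicles fuse with their target when a vesicle SNARE of the Vamp family zips together with plasma membrane SNAREs of the syntaxin and Snap families. Every cell uses such sets, and neurons add dedicated isoforms to them. Synaptotagmins sense calcium, Munc13 (Unc13a) and complexins prepare the SNAREs, and active zone proteins hold vesicles at the release site. Synapsins, Rab3 proteins, synaptophysin and the vesicular glutamate transporters sit on the vesicle itself. Neural stem cells use the general isoforms, and the neuronal isoforms come on as neurons differentiate.

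The knockdown library held 16058407 counts and the control library 16549682. Levels are in CPM, which are counts scaled to a common library size, and a floor of 3 counts corresponds to 0.190 CPM in the knockdown and 0.178 CPM in the control library. Ratios are knockdown over control, each with a 95% interval (exact conditional binomial) that covers counting error only. Ccdc25 itself had 411 counts in the knockdown and 553 in the control library, for a ratio of 0.794 (0.697 to 0.904). An interval wholly below 1 was also found for 33.6% of all genes averaging 1 CPM or more. All 10 neural stem cell markers examined, among them Sox2, Nes and Pax6, passed 1 CPM and stood above their control level. Of these 10, 8 lay within 2-fold. Among all 14158 genes averaging 1 CPM or more, 7031 had a ratio above 1. The summed levels of the 10 markers were 8308 CPM in the knockdown and 6450.2 CPM in the control library. The control library also held neuron markers. The 10 of these summed to 1727 CPM in the knockdown and 3966 CPM in the control library. In the knockdown library 9 of them were lower, beside 50.3% of all genes. The 8 astrocyte markers summed to 1571 CPM in the knockdown and 572 CPM in the control library, and the 9 oligodendrocyte lineage markers to 4759 CPM in the knockdown and 2927 CPM in the control library, with all 17 higher in the knockdown library. No marker of these 4 lists was at 0 in either library. In bulk RNA, fewer neurons and less RNA of a gene per neuron cannot be told apart, and this holds for each lower value below.

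Of the 20 release genes that were at least 2-fold lower in the knockdown library, 19 were neuronal isoforms. Of the 42 neuronal isoforms, 39 reached 1 CPM on average. Of these 39, 19 (48.7%) were at least 2-fold lower in the knockdown library, 1 was at least 2-fold higher and 19 lay within 2-fold. Among the lower ones, Rims1 passed the minimum only through the control library, where it is high. Over all 14158 genes past the same minimum, 7.76% were at least 2-fold lower and 7.64% at least 2-fold higher. The median log2 fold of the neuronal isoforms was -0.94, beside -0.0042 for all genes. The counting interval lay wholly below a ratio of 1 for 29 of the 39 and wholly above it for 5, beside 33.6% and 33.2% of all genes. Taking both directions together, 20 of the 39 passed 2-fold, beside 15.4% of all genes, and 26 passed 1.5-fold, beside 31.6% of all genes.

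The general trafficking isoforms lay closer to their control levels. Of the 25, 23 passed the minimum, and 22 of these lay within 2-fold, beside 84.6% of all genes. Stxbp2 was the 1 member at least 2-fold lower, and 0 were 2-fold higher, beside 7.76% and 7.64% of all genes. With so few genes these counts lie near those shares. The median log2 fold was 0.16, with a range from -1.11 to 0.83, against a range from -3.62 to 1.01 for the neuronal isoforms. None of the 6 mixed members passed 2-fold, which is also near the 15.4% of all genes, and their median log2 fold was -0.25. The members under the minimum were Syt10, Unc13c and Stxbp5l of the neuronal and Vamp5 and Stx19 of the general isoforms, with 1 to 15 counts. In GENCODE M21, 21 of the 73 genes share exonic bases with another gene, on the opposite strand except for Stx5a and Bsn. When neuronal members that share exonic bases with another gene were left out, 13 of the remaining 24 passed 2-fold.

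**Figure D1:**
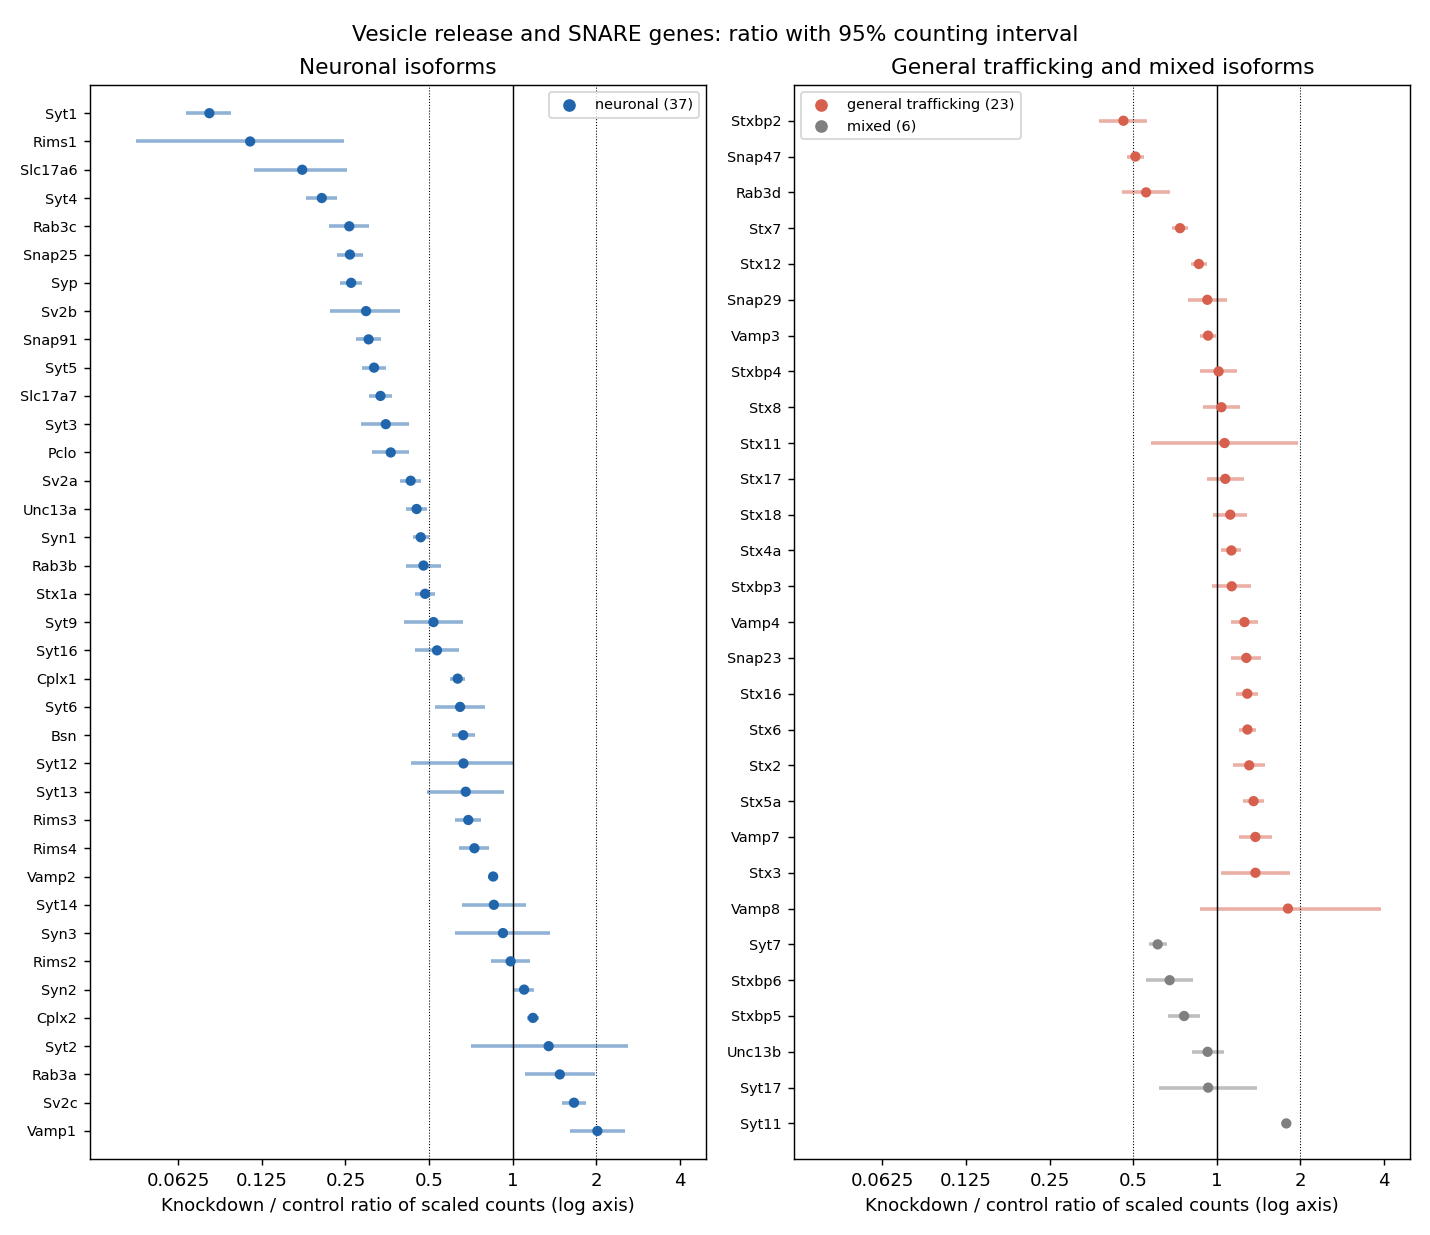
Knockdown over control ratio (log axis) of 66 genes past the minimum, with points for ratios and lines for 95% counting intervals. The solid line marks equal levels and the dotted lines 2-fold. Neuronal isoforms (left panel, 37) spread from 0.0808 for Syt1 to 2.02 for Vamp1, while general trafficking isoforms (right panel, 23, above the 6 mixed members) lie mostly around 1.

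Promoters were examined for letters that the members share, using RefSeq sequences (GRCm38.p6), which held 73 promoters for 58 of the 73 genes. In the 250 bases before the start, on either strand, the GC box GGGCGG was found in 70.7% of 41 promoters of neuronal and 53.6% of 28 promoters of general isoforms. The share among all 32841 promoters was 32.7%. For the neuronal isoforms at least 2-fold lower it was 60% of 20 promoters. Some genes have several promoters, the 41 neuronal ones belonging to 31 genes and the 28 general ones to 23. Median GC content was 61.2% for neuronal, 59.4% for general and 52.4% for all promoters, and the shares were not matched for it. The cAMP response element TGACGTCA was in 2 members' promoters, that of neuronal Syn1 and that of general Stxbp3, and in 1.55% of all promoters. The TATA box TATAAA was in 5 of the 73 promoters and in 12.4% of all. A match of letters is a description of the sequence and not a site of binding, and the search did not reach beyond these windows.

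Exon-free stretches of 4 promoters are shown because they pair a neuronal with a general isoform that share a motif and differ in ratio. Capitals mark the cAMP response element in Syn1 and Stxbp3 and the GC box in Stx1a and Stx4a. Stxbp3 also holds the GC box, left in lower case, and Syn1 does not. The Syn1 stretch is chrX:20921005-20921168 on the minus strand, Stxbp3 chr3:108840527-108840752 on the minus strand, Stx1a chr5:135023232-135023481 and Stx4a chr7:127841558-127841763, both on the plus strand.
Syn1: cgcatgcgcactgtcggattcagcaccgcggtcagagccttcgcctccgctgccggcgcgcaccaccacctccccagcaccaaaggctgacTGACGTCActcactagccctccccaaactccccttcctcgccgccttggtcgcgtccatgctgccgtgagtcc
Stxbp3: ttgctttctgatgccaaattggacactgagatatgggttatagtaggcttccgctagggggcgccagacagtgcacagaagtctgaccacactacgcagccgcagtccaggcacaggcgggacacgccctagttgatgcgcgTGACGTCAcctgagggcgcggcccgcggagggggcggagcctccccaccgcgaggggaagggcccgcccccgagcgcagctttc
Stx1a: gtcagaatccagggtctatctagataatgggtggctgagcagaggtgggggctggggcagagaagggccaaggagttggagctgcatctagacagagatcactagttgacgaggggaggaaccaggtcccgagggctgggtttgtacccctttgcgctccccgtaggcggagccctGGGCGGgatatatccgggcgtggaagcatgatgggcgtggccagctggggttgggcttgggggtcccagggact
Stx4a: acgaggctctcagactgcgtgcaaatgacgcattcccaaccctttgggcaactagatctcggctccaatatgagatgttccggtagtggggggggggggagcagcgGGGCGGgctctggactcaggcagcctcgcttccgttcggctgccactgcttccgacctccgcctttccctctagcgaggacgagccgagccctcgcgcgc
Syn1 had a ratio of 0.467 and Stxbp3 of 1.13, and Stx1a had 0.484 and Stx4a 1.13. The match starts 159 bases before the start in Syn1 and 108 in Stxbp3. The motifs searched do not contain each other.

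Among the neuronal SNAREs, Snap25 and Stx1a were at least 2-fold lower while the vesicle SNARE Vamp2 was close to its control level. Snap25 (chromosome 2, 136713453 to 136782428, plus strand, as the table gives positions), the plasma membrane SNARE with a pair of SNARE helices, had 408 counts in the knockdown and 1681 in the control library. These correspond to 25.9 CPM in the knockdown and 99.8 CPM in the control library, for a ratio of 0.259 (0.232 to 0.289). Stx1a, a syntaxin of the presynaptic membrane, stood at 53.4 CPM in the knockdown and 110.3 CPM in the control library, for a ratio of 0.484 (0.446 to 0.525). Vamp2, the main vesicle SNARE of synapses, had 4276 counts in the knockdown and 5366 in the control library, for a ratio of 0.852 (0.818 to 0.887). Vamp1, its relative in the brainstem, spinal cord and at the neuromuscular junction, was the 1 neuronal member at least 2-fold higher. It stood at 14.5 CPM in the knockdown and 7.18 CPM in the control library, for a ratio of 2.02 (1.62 to 2.54). With DESeq2's factors, total counts, the authors' CPM or a prior count of 5, Vamp1 lay just within 2-fold.

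The general SNAREs of the same families lay around or above their control level, with Snap47 as the main exception. Snap23, which takes the place of Snap25 in most other cells, stood at 34.9 CPM in the knockdown and 27.3 CPM in the control library, for a ratio of 1.28 (1.13 to 1.45). Vamp3, the ubiquitous relative of Vamp2, stood at 114 CPM in the knockdown and 122 CPM in the control library, for a ratio of 0.932 (0.874 to 0.993). The plasma membrane syntaxins Stx2, Stx3 and Stx4a had ratios of 1.31, 1.38 and 1.13. Among the Golgi and endosome syntaxins, Stx5a, Stx6 and Stx16 had ratios of 1.36, 1.29 and 1.29, all with intervals above 1. The endosomal syntaxins Stx12 and Stx7 were lower, with Stx7 at 93.3 CPM in the knockdown and 126 CPM in the control library, for a ratio of 0.738 (0.691 to 0.790). Stx8, Stx17 and Stx18, of endosomes, autophagosomes and the ER, had ratios of 1.04, 1.08 and 1.12, and with Stx11 their intervals held 1. Stx18 shares 574 exonic bases with Nsg1 on the opposite strand, which had 4440 counts in the knockdown and 6317 in the control library, so its value is uncertain where counting ignored strand. The vesicle SNAREs Vamp4 and Vamp7 had ratios of 1.26 and 1.38, with Vamp7 placed on a scaffold outside the chromosomes. Vamp8, an endosomal SNARE, had 22 counts in the knockdown and 13 counts in the control library, and its interval reached from 0.872 to 3.91.

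Snap47, a relative of Snap25 that has no membrane anchor, stood at 70.1 CPM in the knockdown and 137 CPM in the control library. Its ratio of 0.510 (0.474 to 0.548) lay just within 2-fold and passed it after scaling to total counts or with the authors' CPM. It was classed as general because many tissues express it. Snap47 shares 307 exonic bases with Jmjd4 on the opposite strand, which had 224 counts in the knockdown and 359 counts in the control library. Snap29, a SNARE of endosomes and autophagosomes, had 286 counts in the knockdown and 330 counts in the control library, for a ratio of 0.926 (0.788 to 1.09).

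Among the general syntaxin-binding proteins, Stxbp2 was lower and the others lay near their control levels. Stxbp3, which serves Stx4a in other cells, had 313 counts in the knockdown and 295 counts in the control library, for a ratio of 1.13 (0.964 to 1.33). Stxbp4, with 336 counts in the knockdown and 353 counts in the control library, had a ratio of 1.02 (0.873 to 1.18). Stxbp2, which serves immune and epithelial secretion, was the general isoform furthest below its control level, at 9.07 CPM in the knockdown and 19.6 CPM in the control library. Its ratio was 0.462 (0.377 to 0.563). The mixed members Stxbp5 (tomosyn) and Stxbp6 (amisyn), which both compete for SNAREs, had ratios of 0.764 and 0.678 with intervals below 1.

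The priming and clamping proteins differed from each other. Unc13a, the main Munc13 of excitatory synapses, stood at 50.2 CPM in the knockdown and 111 CPM in the control library, for a ratio of 0.451 (0.415 to 0.490). It shares 495 exonic bases with Colgalt1 on the opposite strand, which had 1143 counts in the knockdown and 1351 counts in the control library. Unc13b, also used outside the nervous system, stood at 26.9 CPM in the knockdown and 29.0 CPM in the control library, for a ratio of 0.928 (0.813 to 1.06). Complexins bind the assembled SNARE bundle, and the 2 measured members lay on opposite sides of their control levels. Cplx1 stood at 102 CPM in the knockdown and 161 CPM in the control library, for a ratio of 0.634 (0.596 to 0.675). Cplx2 stood at 184 CPM in the knockdown and 155 CPM in the control library, for a ratio of 1.18 (1.12 to 1.25). The intervals of Cplx1 and Cplx2 did not overlap. Unc13c had 4 counts in the knockdown and 15 counts in the control library and is too low for a firm ratio.

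The synaptotagmins held the lowest ratio of the 68 members past the minimum. Syt1 (chromosome 10, 108497650 to 109010982, minus strand), the fast calcium sensor of synaptic release, had 124 counts in the knockdown and 1640 in the control library. It stood at 7.86 CPM in the knockdown and 97.3 CPM in the control library, for a ratio of 0.0808 (0.0668 to 0.0970), the 44th lowest ratio among the 14158 genes. Syt4, a synaptotagmin of dense-core and postsynaptic vesicles, had 280 counts in the knockdown and 1457 counts in the control library, for a ratio of 0.205 (0.180 to 0.234). It shares 566 exonic bases with an antisense gene that had 2 counts in the knockdown and 1 in the control library. Syt5 and the high-affinity calcium sensor Syt3 were also at least 2-fold lower. Syt5 stood at 32.5 CPM in the knockdown and 103 CPM in the control library, for a ratio of 0.317 (0.287 to 0.350). Syt3 stood at 8.56 CPM in the knockdown and 24.5 CPM in the control library, for a ratio of 0.349 (0.285 to 0.425).

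The other neuronal synaptotagmins past the minimum lay within 2-fold. Syt9, a further fast calcium sensor, had 101 counts in the knockdown and 208 counts in the control library, for a ratio of 0.519 (0.405 to 0.661). Syt16, which lacks the residues for calcium binding, had 186 counts in the knockdown and 372 counts in the control library, for a ratio of 0.534 (0.446 to 0.639). Syt6 and Syt13 had ratios of 0.647 and 0.678 with intervals below 1, and Syt14 had 0.856. The intervals of Syt14, Syt12 and Syt2 held 1. Syt10 had 1 count in the knockdown and 15 in the control library, for a ratio of 0.0712 with an interval from 0.00169 to 0.463. The mixed synaptotagmins divided. Syt7, a slow calcium sensor of neurons and of lysosomes, stood at 70.8 CPM in the knockdown and 115 CPM in the control library, for a ratio of 0.613 (0.569 to 0.661). Syt11, which does not bind calcium and is abundant in brain, stood at 431 CPM in the knockdown and 242 CPM in the control library, for a ratio of 1.78 (1.72 to 1.85). Syt17 had 48 counts in the knockdown and 55 counts in the control library and an interval that held 1.

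**Figure D2:**
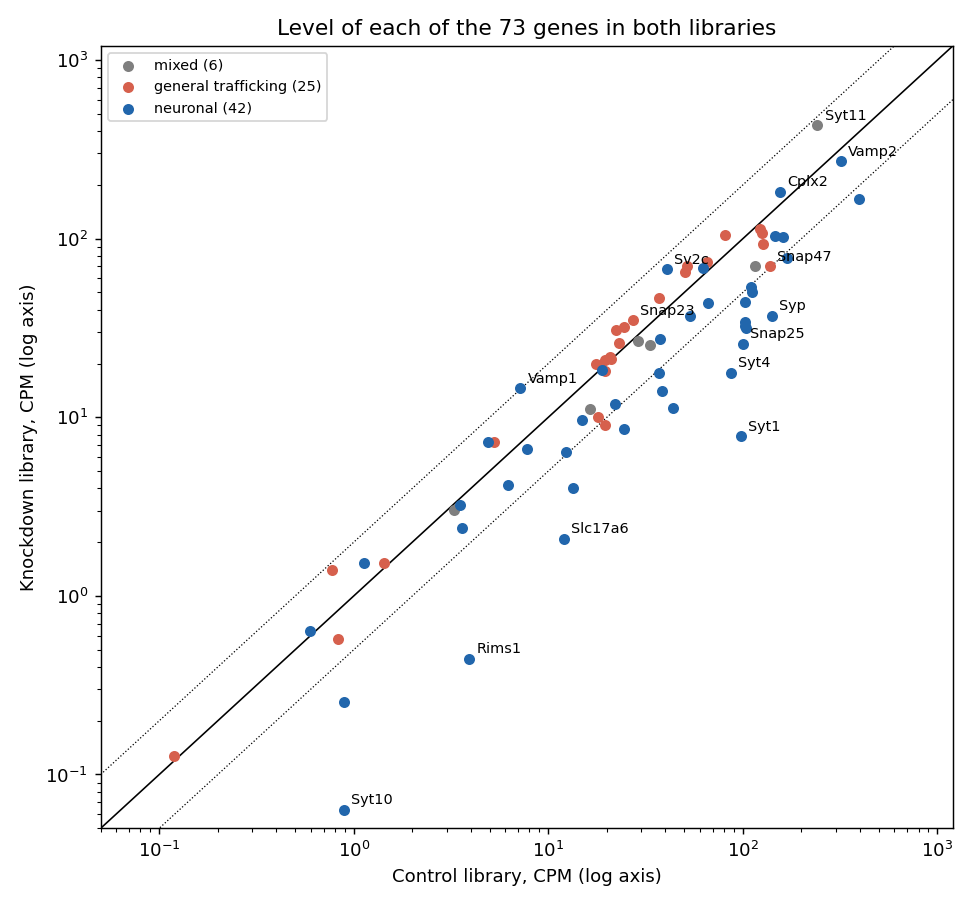
Level of each of the 73 genes in the knockdown library (vertical, CPM, log axis) against the control library (horizontal, CPM, log axis), coloured by class. The solid line marks equal levels and the dotted lines 2-fold. Syt1 lies far below the diagonal, at 7.86 CPM in the knockdown and 97.3 CPM in the control library, and Syt11 lies above it, at 431 CPM in the knockdown and 242 CPM in the control library.

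The active zone proteins, which gather vesicles and calcium channels at the release site, spanned a wide range of ratios. Rims1, a central scaffold, had 7 counts in the knockdown and 66 in the control library, for a ratio of 0.113 (0.0439 to 0.247). This was the 65th lowest ratio among the 14158 genes past the minimum. At 0.444 CPM in the knockdown and 3.92 CPM in the control library, Rims1 passed that minimum only through the control library. Rims2 had 292 counts in the knockdown and 317 counts in the control library, for a ratio of 0.984 (0.837 to 1.16). The short family members Rims3 and Rims4, which lack most of the scaffold domains, had ratios of 0.693 (0.623 to 0.770) and 0.729 (0.643 to 0.825). Of the giant scaffolds, Pclo (piccolo) stood at 13.95 CPM in the knockdown and 38.3 CPM in the control library, for a ratio of 0.364 (0.311 to 0.425). Bsn (bassoon) stood at 43.7 CPM in the knockdown and 65.8 CPM in the control library, for a ratio of 0.664 (0.603 to 0.731). Rims1 and Pclo were the 2 of the 6 active zone genes at least 2-fold lower, beside 7.76% of all genes. All 6 had ratios below 1, beside 50.3% of all genes, and the interval of Rims2 held 1.

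Of the neuronal vesicle proteins, 9 of 13 were at least 2-fold lower and 0 at least 2-fold higher, beside 7.76% and 7.64% of all genes. The counts of lower members were 2 of 5 for the neuronal SNAREs, 2 of 4 for their regulators, 4 of 11 for the synaptotagmins and 2 of 6 for the active zone. The glutamate transporters that fill vesicles were both in this group. Slc17a6 stood at 2.09 CPM in the knockdown and 11.99 CPM in the control library, for a ratio of 0.175 (0.117 to 0.253). Slc17a7 stood at 34.1 CPM in the knockdown and 102 CPM in the control library, for a ratio of 0.334 (0.303 to 0.368). Syp, the abundant membrane protein synaptophysin, had 583 counts in the knockdown and 2378 in the control library, for a ratio of 0.262 (0.239 to 0.287). It shares 875 exonic bases with an antisense gene that had 1 count in the knockdown and 5 counts in the control library. Snap91 (AP180), an adaptor for vesicle recovery that carries a Snap symbol without being a SNARE, stood at 31.5 CPM in the knockdown and 104 CPM in the control library, for a ratio of 0.303 (0.274 to 0.335).

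Within the Sv2, synapsin and Rab3 families, 1 member each stood above its control level beside lower relatives. Of the Sv2 glycoproteins, Sv2a stood at 44.3 CPM in the knockdown and 103 CPM in the control library, for a ratio of 0.429 (0.393 to 0.469). Sv2b stood at 3.99 CPM in the knockdown and 13.5 CPM in the control library, for a ratio of 0.297 (0.221 to 0.394). Sv2c, in the adult brain mainly a protein of the basal ganglia, stood at 67.6 CPM in the knockdown and 40.6 CPM in the control library, for a ratio of 1.67 (1.51 to 1.84). Synapsins tether vesicles to each other. Syn1 stood at 78.3 CPM in the knockdown and 168 CPM in the control library, for a ratio of 0.467 (0.436 to 0.499). Syn2 stood at 68.8 CPM in the knockdown and 62.5 CPM in the control library, for a ratio of 1.10 (1.011 to 1.1996). Syn3 had 51 counts in the knockdown and 59 counts in the control library and shares 1733 exonic bases with Timp3 on the opposite strand, so its ratio of 0.924 is uncertain.

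The Rab3 GTPases guide vesicles to the membrane. Rab3c had 177 counts in the knockdown and 733 in the control library, for a ratio of 0.258 (0.218 to 0.304). Rab3b had 278 counts in the knockdown and 622 counts in the control library, for a ratio of 0.478 (0.413 to 0.551). Rab3a, the main form of adult synapses, was low in both libraries at 7.29 CPM in the knockdown and 4.93 CPM in the control library, for a ratio of 1.48 (1.11 to 1.99). Rab3d, the form of exocrine and mast cells, had 158 counts in the knockdown and 303 counts in the control library, for a ratio of 0.557 (0.457 to 0.678). General Rab3d thus lay among the neuronal forms of its family.

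Levels were compared between isoforms after division by exon length (CPM per kilobase of GENCODE M21 exons). In the knockdown library Syt11 was the highest of the 73 genes at 82.8, followed by Vamp2 at 71.2 and Cplx1 at 46.8 CPM per kilobase. In the control library Vamp2 was highest at 83.6, and Cplx1 stood at 73.7 CPM per kilobase. Syt11 made up 68.1% of the summed synaptotagmin level per kilobase in the knockdown and 29.2% in the control library. Syt1 made up 0.775% of it in the knockdown and 7.34% in the control library. Neuronal Snap25 made up 8.73% of the 4 Snap genes (Snap91 left out) in the knockdown and 18.7% in the control library. Snap23 made up 18.6% in the knockdown and 8.09% in the control library. Snap47 held the largest share, 60.6% in the knockdown and 66.0% in the control library. The Snap sum itself was 43.6 CPM per kilobase in the knockdown and 78.6 in the control library. Snap23 stood at 8.14 CPM per kilobase in the knockdown and 6.36 in the control library. Vamp1 and Vamp2 together made up 53.7% of the Vamp level in the knockdown and 58.5% in the control library. Sv2c made up 41.0% of the Sv2 level in the knockdown and 14.9% in the control library, and Syn2 made up 29.0% of the synapsin level in the knockdown and 14.8% in the control library. Rab3a made up 28.2% of the Rab3 level in the knockdown and 10.8% in the control library. These shares set isoforms of different exon length side by side, and which transcripts the cells used was not analysed here.

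**Figure D3:**
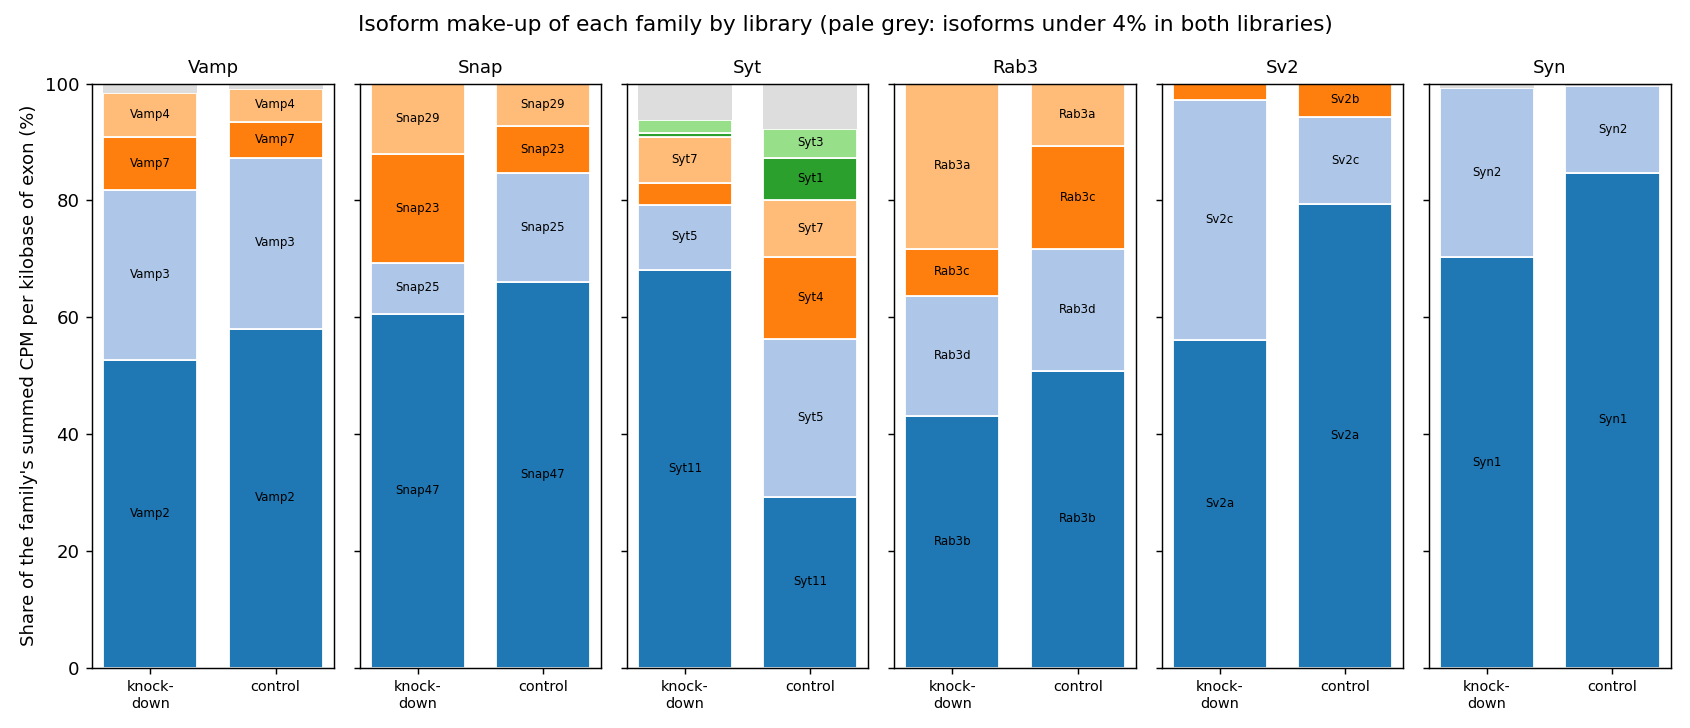
Share (%) of each family's summed level (CPM per kilobase of exon) taken by each isoform, with the knockdown library left and the control library right. Colours separate isoforms within a family, and pale grey gathers isoforms under 4% in both libraries. The Syt11 share is 68.1% in the knockdown and 29.2% in the control library, and the Snap25 share is 8.73% in the knockdown and 18.7% in the control library.

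The deposited annotation offered a second way to divide the members, chosen after seeing the data. A cellular component term for the synaptic vesicle or the presynapse was attached to 49 of the 73 genes, among them 34 of the neuronal and 11 of the general isoforms. Of the neuronal isoforms with such a term, 18 of the 33 past the minimum were at least 2-fold lower, beside 7.76% of all genes. Of the general isoforms with such a term, 0 of the 10 past the minimum were, and with so few genes this count lies near that share. Their median log2 fold was 0.35. Over all members the division by term alone was less sharp, since the 47 measured members with a term had a median log2 fold of -0.58 and the 21 without had -0.10.

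Further presynaptic genes, not among the 73, were counted in the same way. Of 29 past the minimum, 12 were at least 2-fold lower, 2 at least 2-fold higher and 15 within 2-fold, beside 7.76% lower and 7.64% higher among all genes, with a median log2 fold of -0.81. The higher genes, named after their values were seen, were Rab27b at 2.61 and Snapin at 2.05, which shares 354 exonic bases with Ilf2. The GABA transporter Slc32a1 stood at 5.58 CPM in the knockdown and 44.1 CPM in the control library and shares 697 exonic bases with an antisense gene. The synuclein gene Sncb had a ratio of 0.218, and Rimbp2, a partner of Rim proteins, had 0.274. Of 14 genes of vesicle endocytosis, 2 passed 2-fold downward and 0 upward, with a median log2 fold of -0.31. Beside 7.76% of all genes, this count lies near the background. Dnm1, the neuronal dynamin, stood at 30.1 CPM in the knockdown and 167 CPM in the control library, for a ratio of 0.180 (0.163 to 0.199). Dnm2, the dynamin of most other cells, had a ratio of 1.43 (1.36 to 1.51), while neuronal Dnm3 and the endophilin Sh3gl2 had 0.532 and 0.499. Dnm2 and Dnm3 share 207 and 397 exonic bases with other genes. Of 17 further SNAREs of the ER, Golgi and endosome and their partners, 0 were at least 2-fold lower and 1, Scfd2, was at least 2-fold higher, with a median log2 fold of 0.16. These counts lie near the shares of all genes, 7.76% lower and 7.64% higher. Bet1 and Use1 had ratios of 1.75 and 1.74, and the endosomal Vti1b had 0.642. Vti1b shares 285 exonic bases with Arg2 on the opposite strand.

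Markers of cell types stood apart in both directions. Tubb3, the neuronal tubulin, had a ratio of 0.314, the growth cone genes Stmn2 and Gap43 had 0.262 and 0.318, and the neurofilament gene Nefl had 0.138. The 1 neuron marker above its control level was Map2 at 1.08, which was picked for that value. The median ratio was 0.519 over the 39 neuronal release genes past the minimum and 0.371 over the 10 neuron markers. Of the 8 astrocyte markers, 4 were at least 2-fold higher, beside 7.64% of all genes, and 4 lay within 2-fold. Their median ratio was 6.45, with the highest, 156, for Gfap. S100b and Agt, at 0.475 and 0.949 CPM in the control library, passed the minimum only through the knockdown library. Of the 9 oligodendrocyte lineage markers, 7 were at least 2-fold higher, beside 7.64% of all genes, and 2 lay within 2-fold. Their median ratio was 13.02, with 22.9 for Myrf. The part of these markers' cell types in the values of the release genes was not tested.

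**Figure D4:**
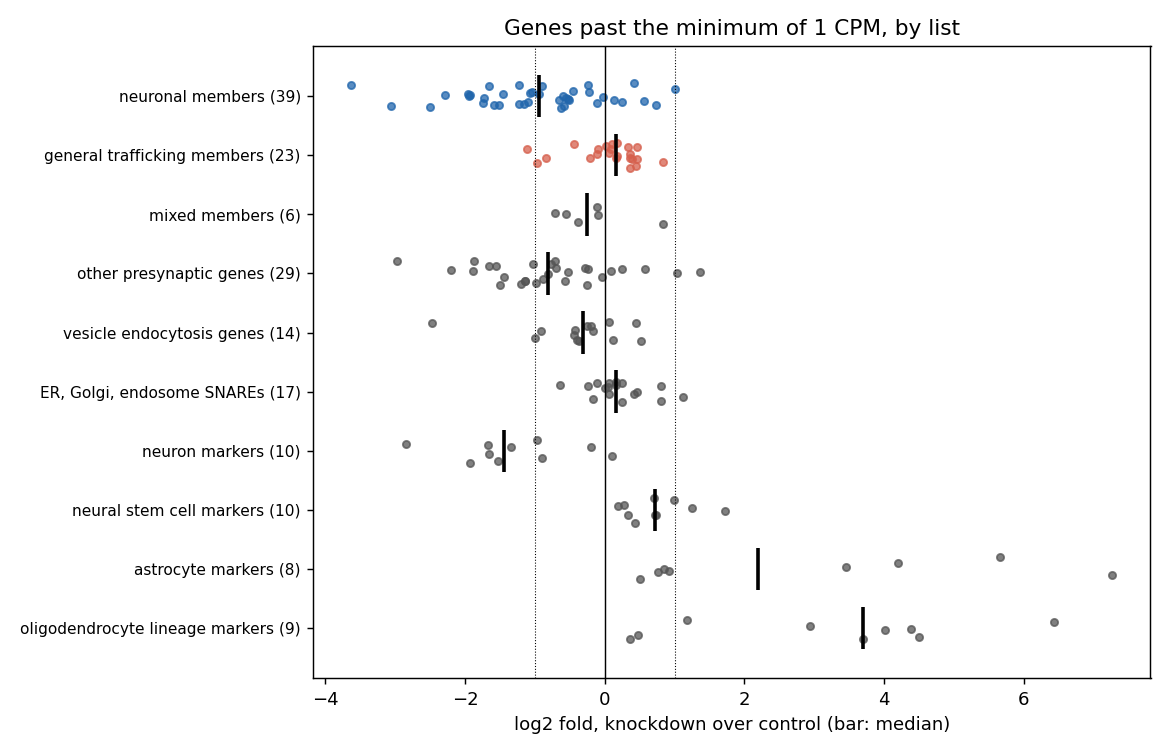
Log2 fold, knockdown over control, of each gene past the minimum of 1 CPM, by list, with the number of genes in brackets, points for genes and a bar for the median. Dotted lines mark 2-fold. Neuronal members centre at -0.94 and other presynaptic genes at -0.81, while general trafficking members and the further SNAREs of the ER, Golgi and endosome both centre at 0.16.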

How the data were processed

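Per the file headers, the table the authors deposited holds 1 raw count column per library. Per the submitters' processing notes, the tools were HTSeq 0.6.0, TopHat2 2.0.12 and Bowtie2 2.2.3 and the build mm9, without order or settings, while gene positions match GRCm38 (GENCODE M21). Strandedness is not given in the sources used here. The deposited normalised values are CPM, each library's counts times 1 constant, with 0 entered as 0.5 counts. The deposited fold ratio, its log2 and the deposited p-values, whose test the headers do not name, were not used.

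Counts were scaled by edgeR 4.0.16 TMM factors over all 19595 genes (0.982 for the knockdown, 1.018 for the control library). The log2 fold adds 0.5 counts, and genes averaging 1 CPM or more were counted at 2-fold. Intervals are Clopper-Pearson, and PCR copies are not independent molecules. No test was possible with 1 library per group. The calculation was run on simulated counts that held counting error only, scaled to total counts. Such data hold no difference between cultures, so they cannot stand in for replicates. Exon lengths and overlaps are from GENCODE M21. Values are given for members averaging 5 CPM or more or past 2-fold, and for up to 4 genes of each other list by size of fold, with exceptions marked or named as relatives. A longer promoter motif, and a variant of it chosen after the Syn1 promoter was read, were also searched and are not reported. Members and lists were chosen with earlier results of these data known. Alternatives were other scalings, minimums, prior counts, thresholds and classes. Single values of some genes are not reported here, but those genes enter the counts and medians.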

Additional observations from a re-analysis of the deposited data

How the results depend on the processing

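Scaling with DESeq2 1.42.0 size factors, total counts or the authors' CPM, or a prior count of 5, moved each of 272 recomputed log2 folds of single members by less than the half-width of its own counting interval. DESeq2 factors and total counts each shift every member by 1 constant, so these values are not separate checks. The median of all genes lay at -0.056 or closer to 0. Vamp1 (0.997 with DESeq2 factors, 0.961 with total counts) fell short of 2-fold, and Snap47 passed it downward (-1.02 with total counts and the authors' CPM). The count of neuronal isoforms past 2-fold was 19 of 39 under each other scaling and the prior count of 5, 17 of 29 at a minimum of 10 CPM, 22 of 42 with no minimum, 26 of 39 at 1.5-fold, and 13 of 24 without members that share exonic bases, a set with fewer genes. The median of the neuronal isoforms was -0.66 with the mixed members added. Classes from annotation terms were an alternative chosen after seeing the data. The 47 measured members with a term, 33 neuronal and 10 general among them, had a median of -0.58. The count of general isoforms past 2-fold was 2 with total counts and 2 with the authors' CPM, where Snap47 joined Stxbp2. At 1.5-fold it was 4. Of the 21 measured members without a term, 13 general and 6 neuronal among them, 3 passed 2-fold, with a median of -0.10. These were general Stxbp2 and neuronal Snap25 and Vamp1. The sets by term thus differ in members from the classes, and no cause was tested. No paired analysis was possible because each group has 1 library, and no library could be left out.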

Other observations

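Sequence shared with other genes was counted as 50-base words of the members' GENCODE M21 transcripts that also occur, on either strand, in a transcript of another gene. The share was 29.6% for Stx18, 17.0% for Syt12, 16.1% for Syp, 14.2% for Syn3 and 10.9% for Syt4, and under 10% for the other members that have a value, Vamp7 having none. For Stxbp3 it was 9.27%, and the gene sharing most words with it was the pseudogene Stxbp3-ps, which had 3 counts in the knockdown and 7 in the control library.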
